A study of Rattus norvegicus with 176 samples.

Results

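Livers of F344 rats given clofibric acid (CA) were compared with livers of control rats at the time labelled 9m, with 5 rats in each group. These 10 liver sections were chosen by their group labels, Clo:9m for CA and Ctrl:9m for control, and by titles without a tag for a second kind of section, out of 176 sections in the series. F344 is an inbred laboratory rat, and the labels do not give sex, age or diet composition. The sections are whole tissue, and each rat gave 1 untagged section on 1 Affymetrix array, numbered 4132 to 4136 in the CA group and 4023 to 4027 in the control group. The titles name 5000 ppm CA for every rat, controls included, so the group name alone separates treated from control animals. Neither group carries DEN in its name, and no transgene or deletion is labelled. For comparison, CA and control rats at 5j, 1m, 3m, 12m and 18m were used, with 5 rats in each group and 50 in all. The letter m was read as months, as the titles speak of months, and j is not spelled out. Rats labelled DEN-Clo (called DEN-CA here) and DEN at 9m, 5 in each group, were also used. Some titles carry a B after the rat number, which is not explained: CA rat 4136, control rat 4027, 4 of 5 DEN-CA and 1 of 5 DEN rats at 9m. DEN is the usual abbreviation of the liver carcinogen diethylnitrosamine, but the labels give no dose or route.

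Clofibric acid is a fibrate, a class of lipid-lowering drugs that bind the nuclear receptor PPARalpha. Together with its partner RXR, PPARalpha binds DNA elements made of a pair of half-sites 1 base apart and raises genes of fatty acid uptake and oxidation in hepatocytes. In rats and mice, prolonged treatment enlarges the liver, multiplies peroxisomes and can lead to liver tumours. A separate program, driven by the transcription factor ATF4, raises genes of amino acid synthesis and transport when amino acids are short or protein synthesis is stressed.

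Promoters are shown for 4 genes that rose in the CA rats, 3 from the ATF4 program and 1 from fatty acid metabolism. These 4 promoters were taken from those that hold a match to an element searched for. They run from 250 bases before to 50 bases after the start given by RefSeq on GRCr8, 5′ to 3′ on the gene's strand. Capitals mark a match to the ATF4 element, TGATGNAA on either strand, in the promoters of Nupr1, Trib3 and Fgf21. Here each match lies on the other strand and so reads TTGCATCA or TTACATCA. In the promoter of Acot8, capitals mark a pair of AGGTCA half-sites 1 base apart with 1 mismatch. The promoters lie at chr1:190645852-190646151 (minus strand) for Nupr1, chr3:161275484-161275783 (minus strand) for Trib3, chr1:105221327-105221626 (minus strand) for Fgf21 and chr3:173962139-173962438 (minus strand) for Acot8.
Nupr1: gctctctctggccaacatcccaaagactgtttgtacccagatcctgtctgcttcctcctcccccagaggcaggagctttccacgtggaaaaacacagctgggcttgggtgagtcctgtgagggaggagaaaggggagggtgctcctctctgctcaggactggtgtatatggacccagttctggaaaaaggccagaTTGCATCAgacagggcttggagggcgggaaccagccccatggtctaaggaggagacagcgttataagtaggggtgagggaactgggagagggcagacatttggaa
Trib3: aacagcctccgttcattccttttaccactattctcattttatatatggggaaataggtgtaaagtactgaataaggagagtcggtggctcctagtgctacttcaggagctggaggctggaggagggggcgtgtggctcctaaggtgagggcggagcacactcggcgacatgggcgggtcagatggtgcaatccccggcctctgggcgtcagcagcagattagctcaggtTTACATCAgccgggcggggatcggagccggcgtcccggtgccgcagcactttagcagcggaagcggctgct
Fgf21: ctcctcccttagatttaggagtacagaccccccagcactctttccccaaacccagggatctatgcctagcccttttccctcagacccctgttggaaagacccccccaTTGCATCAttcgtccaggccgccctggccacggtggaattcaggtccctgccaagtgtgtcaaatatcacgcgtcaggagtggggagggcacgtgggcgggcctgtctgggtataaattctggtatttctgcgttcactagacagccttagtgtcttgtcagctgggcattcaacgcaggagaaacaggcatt
Acot8: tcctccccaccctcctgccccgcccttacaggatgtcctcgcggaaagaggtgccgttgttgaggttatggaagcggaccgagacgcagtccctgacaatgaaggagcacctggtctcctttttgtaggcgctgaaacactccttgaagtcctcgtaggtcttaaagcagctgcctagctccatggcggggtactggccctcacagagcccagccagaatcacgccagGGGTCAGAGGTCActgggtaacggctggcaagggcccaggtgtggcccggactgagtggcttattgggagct
The matches lie 55 to 48 bases before the start in Nupr1, 21 to 14 in Trib3, 143 to 136 in Fgf21 and 22 to 10 in Acot8. The ATF4 element was found in 1048 of 27457 promoters of this length (3.82%) and in 5 of 24 promoters of the ATF4 list (20.8%). The pair of half-sites, with up to 2 mismatches in all and on either strand, was found in 1020 promoters (3.71%). It was in 7 of 28 promoters of the peroxisomal list and 4 of 16 of the mitochondrial list (25% each). Of the 11 promoters found for the 14 genes with the highest increases, none held the half-sites and 2 held the ATF4 element (18.2%). Among list genes that rose, the ATF4 element was in 3 of 13 promoters of the ATF4 list. The half-sites were in 1 of 4 such promoters of the peroxisomal list and 0 of 5 of the mitochondrial list. Genes that fell also held matches, Ugp2 to the ATF4 element, and Oat and Itih4 to the half-sites. A match describes letters in this window and was not tested for binding.

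Measures of array quality overlapped between the groups. Array medians before scaling ran from 111.8 to 129.4 in the CA rats and from 78.8 to 127.9 in the control rats. The correlation of log2 values was 0.964 to 0.982 within the CA group, 0.962 to 0.978 within the control group and 0.946 to 0.963 between them. The ratio of 3′ to 5′ probe sets was 1.06 to 1.47 in CA and 1.16 to 1.41 in control arrays for Gapdh, and 1.30 to 1.58 against 1.23 to 1.39 for beta-actin. Control rat 4025 stood apart, with 40 probe sets over 2-fold above and 49 over 2-fold below all other control rats. The other control rats had 2 to 8 above and 13 to 33 below. Cyp2c12, a P450 typical of female rat liver, was 7422 in rat 4025, against 61.1 to 76.7 in the CA rats and 107 to 150.2 in the other control rats. The P450 genes typical of male rat liver were lowest in it, with Cyp2c11 at 2557 against 6547 to 10948 in the other controls and Cyp2c13 at 1758 against 5229.5 to 8144. Xist, the RNA of the inactive X chromosome, was near the bottom of the scale in all 10 rats (1.36 to 9 in CA and 2.38 to 5.67 in control rats). The sex of the rats is not labelled, and these genes were chosen after their values were seen. CA rat 4133 had 12 probe sets above and 47 below all other CA rats. Hepatocyte markers were bright, with albumin (Alb) at 14594 in CA and 18048 in control livers (mean scaled intensity, n = 5 each).

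All levels below are intensities scaled to a common array median, in array units, and values are listed in order of rat number. Log2 fold changes (CA over control, ± standard error) were taken after adding 25, which understates changes of dim genes. Adjusted p-values are from limma with Benjamini-Hochberg adjustment over 12368 probe sets, and "rose" or "fell" means an adjusted p under 0.05. No label says how the rats were housed or processed, so p-values rest only on the spread between animals within groups. That spread was pooled over 30 untagged groups of the series, not taken from the compared CA and control rats alone.

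At 9m, 845 probe sets passed (6.83% of those tested), 493 higher in CA (3.99%) and 352 lower (2.85%). Counted as genes, 399 rose (4.56% of 8742) and 249 fell (2.85%), 648 in all (7.41%). Of these genes, 91 rose and 54 fell by more than 2-fold, and 16 rose and 8 fell by more than 4-fold. The CA and control rats did not overlap in 920 probe sets (7.44%), of which 603 were among those that passed. Without control rat 4025, 685 probe sets passed, 420 higher and 265 lower. Counted as genes, 336 of 8742 then rose and 190 fell, so list counts without this rat are to be read beside these lower totals. When arrays were not scaled, 192 passed, 147 higher and 45 lower, with the median of all probe sets shifted by 0.14.

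**Figure D1:**
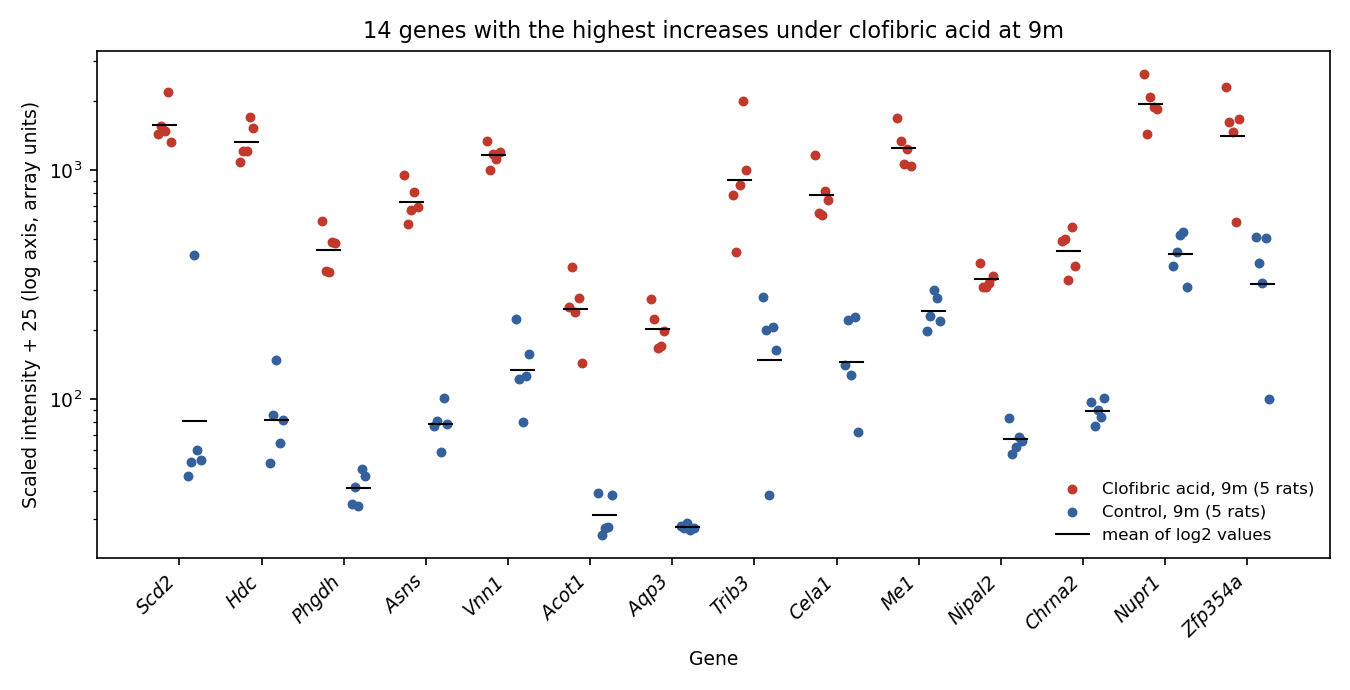
Scaled intensity plus 25 (log axis, array units) in each CA rat (red, left) and control rat (blue, right) at 9m for the 14 genes with the highest log2 fold changes among those whose groups did not overlap. Lines are means of log2 values. Every CA point lies above every control point of its gene, and Scd2 in control rat 4025 (403 before the 25 is added) lies above the other controls.

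The genes with the highest increases included Scd2, Vnn1 and Hdc, which makes histamine from histidine, besides genes of amino acid synthesis. Scd2, a stearoyl-CoA desaturase, had intensities of 1417, 1529, 1454, 2169 and 1309 in the CA rats, against 21.4, 28.2, 403, 35.2 and 29.4 in the control rats. All CA rats were above all control rats, and control rat 4025, at 403, was far above the other controls. The log2 fold change was 4.28 ± 0.32 (adjusted p = 1.8e-22), and 4.88 without control rat 4025. A second Scd2 probe set gave 2.49 ± 0.26. Close family members can share these probe sets, so part of the signal may be from another desaturase. Hdc stood at 1060.1, 1187, 1186, 1676 and 1503 in CA livers, against 27.6, 60.8, 124, 39.8 and 56.7 in control livers. The groups were far apart, with a log2 fold change of 4.03 ± 0.36 (adjusted p = 6.9e-18). Vnn1, the pantetheinase that releases cysteamine and pantothenate, measured 1311, 983, 1153, 1100.2 and 1181 in CA rats and 199, 97.3, 55, 102 and 133 in control rats. Every CA rat exceeded every control rat more than 4-fold in Vnn1 (3.12 ± 0.36 on the log2 scale, adjusted p = 1.2e-11).

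Enzymes of fatty acid oxidation rose in part. In the peroxisomal list 4 of 29 measured genes rose (13.8%, against 4.56% of all genes) and none fell. The median log2 fold change was 0.11, against 0.01 over all genes. With control rat 4025 left out, 3 rose and the median was 0.04, while over all genes 336 rose in place of 399. In the mitochondrial list 8 of 20 rose (40%) and none fell, with a median of 0.30. Ehhadh, the bifunctional enzyme of peroxisomal beta-oxidation, had 9596, 8141, 7389, 7813 and 8113 in CA livers, against 3438, 2246, 2684, 2463 and 2425 in control livers. The groups did not overlap, and the log2 fold change was 1.63 ± 0.22 (adjusted p = 5.1e-09). Acot8, a peroxisomal acyl-CoA thioesterase, had 525, 644, 728, 570.0 and 499 in CA rats and 187, 199, 176, 219.5 and 213 in control rats (1.46 ± 0.22, adjusted p = 1.5e-07). The other peroxisomal genes past the threshold were Nudt7, a coenzyme A hydrolase (0.75 ± 0.17), and Pex11a, which drives peroxisome division (0.83 ± 0.26). A second Pex11a probe set, at 0.36, did not pass (adjusted p = 0.33). The Pex11a call ended when any of 5 rats was left out, with an adjusted p of up to 0.14. Both calls also ended without scaling of arrays (adjusted p = 0.15 for Nudt7 and 0.25 for Pex11a).

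Cpt1b, which passes fatty acids into mitochondria and is known mainly from muscle, had 385, 401, 408, 407 and 452 in CA livers, against 108, 84.5, 78.5, 101 and 103 in control livers. Its CA values were close together and all above the control values, and the log2 fold change was 1.87 ± 0.20 (adjusted p = 7.5e-13). The liver isoform Cpt1a averaged 2394 ± 369 in CA and 3191 ± 396 in control rats (SD, n = 5 each) and did not pass (-0.41 ± 0.15, adjusted p = 0.066). It passed as lower under 4 alternative settings, at an adjusted p of 0.0054 to 0.048, and without CA rat 4132 (0.035) or control rat 4027 (0.044). Eci1 (0.89 ± 0.19) and Hadhb (0.73 ± 0.15), enzymes of the beta-oxidation spiral, rose. The second Eci1 probe set, at 0.45, did not pass, and Hadhb did not pass without scaling (adjusted p = 0.076). Acat1, which joins acetyl-CoA units in ketone body metabolism, rose (1.21 ± 0.16). It was the 1 gene called among 5 in the ketone list (20%, against 4.56% of all genes that rose).

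Of 15 thioesterase and acyl-CoA synthetase genes 5 rose (33.3%, against 4.56% of all genes) and none fell, with a median of 0.31. Acot1, a cytosolic thioesterase, had 228, 354, 215, 253 and 119 in CA rats, against 14, 0.643, 2.49, 2.81 and 13.4 in control rats. Control values were at the bottom of the array's scale, so the log2 fold change of 2.99 ± 0.34 depends on the added 25. Acot2, its mitochondrial relative, rose less (1.30 ± 0.29), and the pair is alike enough in sequence that probe sets may be shared. Acsl3, an acyl-CoA synthetase of lipid droplets, had 343, 263, 336, 466 and 411 in CA livers and 125, 51.3, 88.9, 108 and 72.4 in control livers (1.78 ± 0.24, adjusted p = 6.7e-09). Acot8, described above, and Acsm2 (1.16 ± 0.30, chosen after its values were seen) made up the 5.

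Among 8 fatty acid omega-hydroxylases of the Cyp4a, Cyp4b and Cyp4f families 1 rose and 1 fell, both Cyp4a genes. The shares were 12.5% each, against 4.56% and 2.85% of all genes. The remaining Cyp4a gene measured, Cyp4a3, did not pass (-0.34 ± 0.18, adjusted p = 0.32). Cyp4a1 had 7701, 6112, 5565, 6060.4 and 6222 in CA livers, against 3840.5, 2109, 2419.7, 2270.4 and 2279.5 in control livers. Control rat 4023, at 3840.5, was above the other controls but below every CA rat (1.31 ± 0.19, adjusted p = 6e-08). Cyp4a8 had 35.6, 43, 46, 43.6 and 30.5 in CA livers, against 524, 564, 537, 358 and 435 in control livers. All CA rats lay below all control rats, with a log2 fold change of -2.96 ± 0.21 (adjusted p = 4.9e-24), and a second probe set gave -3.03.

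Of 27 uptake and lipid droplet genes 9 rose (33.3%, against 4.56% of all genes) and 2 fell (7.41%, against 2.85%). The other 16 did not pass, and the median of the list was 0.20. Aqp3, a channel for water and glycerol, had 249, 199.5, 142, 146 and 173 in CA rats, against 3.15, 2.57, 3.96, 2.04 and 2.53 in control rats. Its control values were the dimmest of the genes described, with a log2 fold change of 2.87 ± 0.24 (adjusted p = 7.8e-19). Fabp5, a fatty acid binding protein, had 977, 661, 950.2, 1353 and 900.3 in CA livers and 198, 219.9, 315, 233 and 157 in control livers (1.99 ± 0.26, adjusted p = 1.9e-09). Lpl, lipoprotein lipase, had 257, 223, 242, 305 and 264 in CA livers and 80.7, 82.2, 84.3, 61 and 79.5 in control livers (1.46 ± 0.22, adjusted p = 2.4e-07). Cidea, which enlarges lipid droplets, also rose (1.79 ± 0.33; chosen after its values were seen). Cd36, a fatty acid transporter, had 672, 671, 609, 753 and 856 in CA livers, against 303, 351, 1076, 532 and 358 in control livers. Control rat 4025 was the highest of all 10, the groups overlapped, and the difference of 0.57 ± 0.31 did not pass (adjusted p = 0.32).

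In a list of known PPARalpha targets 8 of 24 rose (33.3%, against 4.56% of all genes) and 1 fell (4.17%, against 2.85%). Members that rose include Cpt1b, Aqp3, Me1 and Fgf21, which are also counted in other lists here. The median of the list was 0.10. Without control rat 4025 the counts were equal and the median was 0.06. The gene that fell was Angptl4, a secreted inhibitor of lipoprotein lipase. It had 432, 220.0, 272, 389 and 278 in CA livers, against 734, 594, 766, 657 and 709 in control livers. Every CA rat lay below every control rat, with a log2 fold change of -1.10 ± 0.25 (adjusted p = 0.0012), which did not pass without scaling (-0.95, adjusted p = 0.17). Pdk4, a kinase that limits glucose oxidation, averaged 303 ± 109 in CA and 459 ± 90.8 in control rats (-0.60 ± 0.27, adjusted p = 0.2). Ppara itself was dim, at 55 ± 27.1 in CA and 25.3 ± 15.8 in control rats, and did not pass (0.64 ± 0.35, adjusted p = 0.33).

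In fatty acid synthesis and desaturation 6 of 26 genes rose (23.1%, against 4.56% of all genes) and none fell, with a median of 0.41. Without control rat 4025, 8 rose and the median was 0.54. Me1, malic enzyme, which supplies NADPH for lipid synthesis, had 1664, 1314, 1036, 1212 and 1022 in CA livers, against 174, 206, 274, 253 and 194 in control livers. The lowest CA rat was more than 3-fold above the highest control rat (2.37 ± 0.20, adjusted p = 8.6e-19). Fads2, the delta-6 desaturase, had 6392, 4602, 4209, 5490.0 and 4621 in CA livers and 1156, 1464, 1664, 1375 and 885 in control livers (1.95 ± 0.24, adjusted p = 7.6e-11). Fasn, fatty acid synthase, had 928, 608, 856, 855 and 538 in CA rats and 399.8, 556, 1497, 753 and 235 in control rats. The highest and lowest values were both controls, rats 4025 and 4027, and the difference did not pass (0.36 ± 0.31, adjusted p = 0.62). Dgat1, which makes triglycerides, rose slightly (0.47 ± 0.13), and lost its call without CA rat 4132 (adjusted p = 0.077), without the arrays with a B suffix (0.055) and without scaling (0.47).

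**Figure D2:**
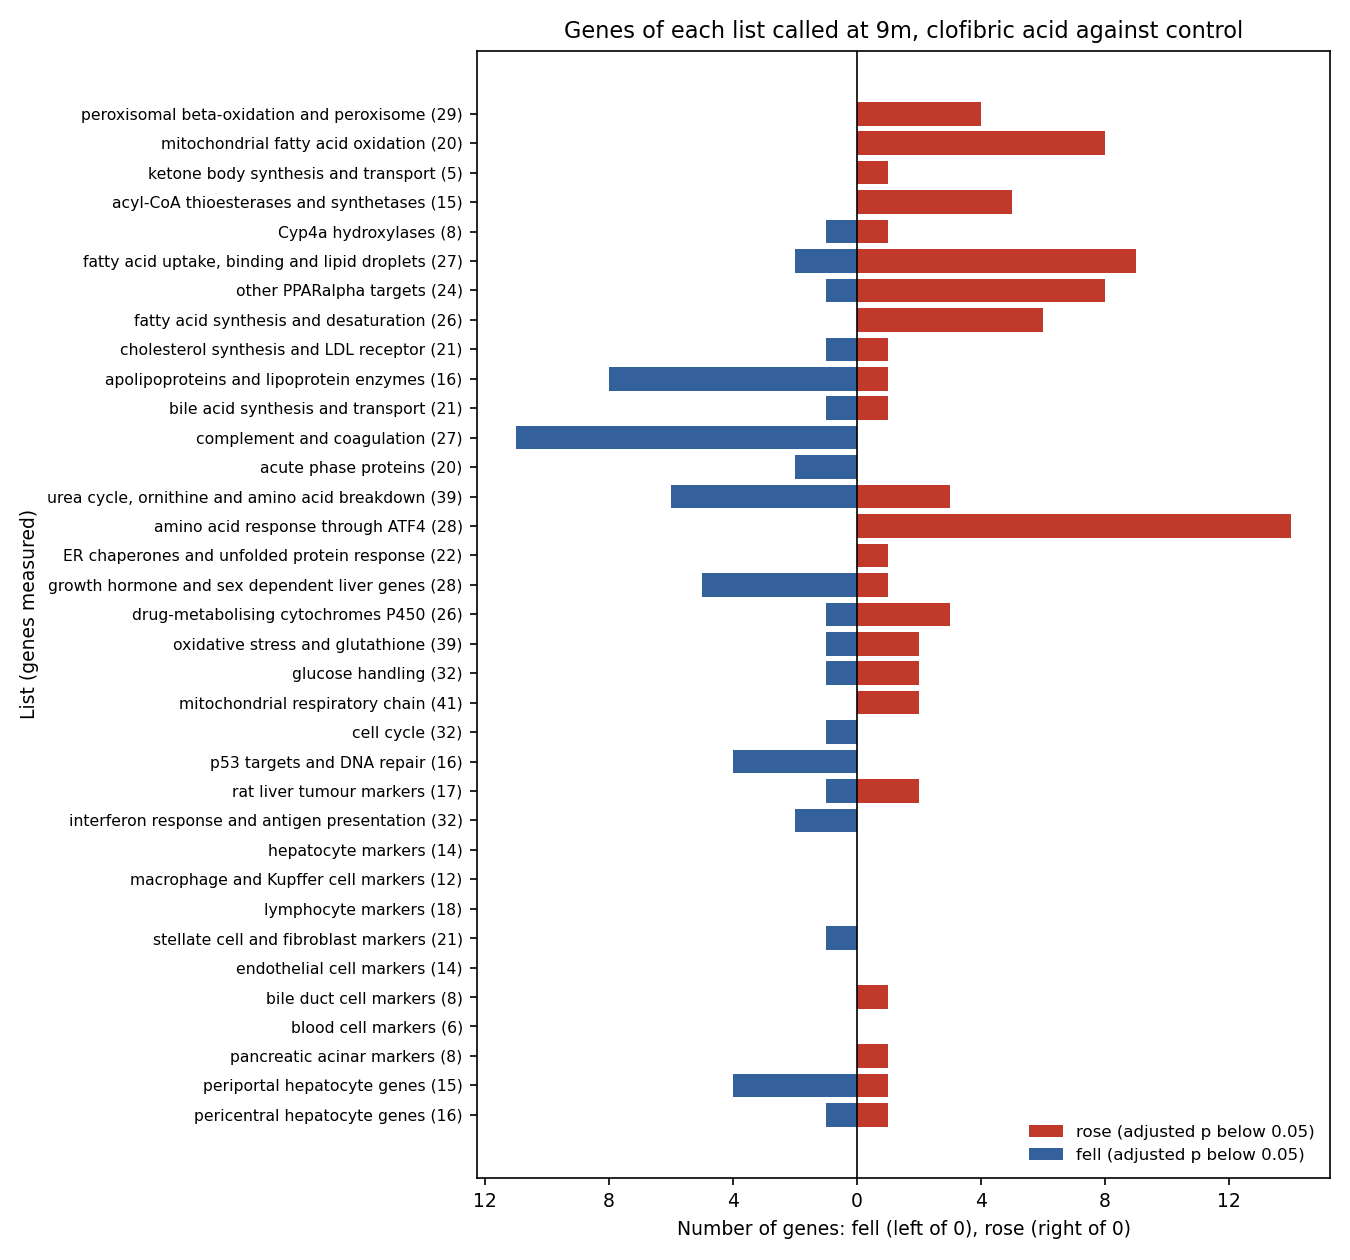
Number of genes that rose (red, right of 0) and fell (blue, left of 0) in CA against control livers at 9m in each gene list, with the number of measured genes in brackets. The ATF4 list has 14 genes up and none down, and the complement and coagulation list 11 down and none up.

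The list with the highest share of raised genes was the amino acid response through ATF4. Of its 28 measured genes 14 rose (50%, against 4.56% of all genes) and none fell, with a median of 0.54. Asns, asparagine synthetase, had 925, 560.0, 649, 777 and 668 in CA livers, against 51.9, 55.6, 34, 76.6 and 53.3 in control livers. The lowest CA rat was more than 7-fold above the highest control rat, with a log2 fold change of 3.23 ± 0.25 (adjusted p = 5.3e-22). Phgdh, the first enzyme of serine synthesis, had 574, 339, 334, 459.5 and 455 in CA livers, against 9.83, 16.4, 9.17, 24.8 and 21.5 in control livers. Its log2 fold change was 3.46 ± 0.36 (adjusted p = 7.9e-14). Psat1, the next enzyme of that pathway, averaged 308 ± 74.6 in CA and 55.3 ± 18.7 in control livers (2.05 ± 0.32). Atf4 itself averaged 2833 ± 649 in CA and 1585 ± 176 in control livers (0.81 ± 0.16). These 2 genes were chosen after their values were seen.

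Slc3a2, the heavy chain shared by several amino acid exchangers, had 3375, 2097, 2705, 2847 and 3069.9 in CA livers and 1071, 893, 732, 709 and 809.6 in control livers (1.71 ± 0.20, adjusted p = 1.3e-11). Nupr1, a stress-induced nuclear protein, had 2613, 1412, 2066, 1869.5 and 1826 in CA livers and 359, 416, 496, 513 and 285 in control livers (2.18 ± 0.25, adjusted p = 5.1e-12). In both genes the groups did not overlap. Trib3, a pseudokinase that restrains ATF4, had 758, 417, 838, 1981 and 981 in CA rats, against 255, 176, 13.4, 182 and 139.7 in control rats. CA rat 4135 was highest and control rat 4025 lowest, and the log2 fold change was 2.60 ± 0.48 (adjusted p = 2.4e-05). Fgf21, a liver hormone induced in fasting and amino acid shortage, had 644, 247, 971, 1819.6 and 315 in CA rats, against 203, 189, 161, 197 and 183 in control rats. The 5 control rats were close together while CA rats spread widely, and CA rat 4135 again stood highest. The log2 fold change of 1.62 ± 0.42 (adjusted p = 0.0062) was 1.24 without that rat and did not pass (adjusted p = 0.075).

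In the ER chaperone and unfolded protein list 1 of 22 genes rose (4.55%, against 4.56% of all genes) and none fell. The median was 0.02, and 0.05 without control rat 4025. That gene was Herpud1, which helps clear misfolded proteins from the ER (1.00 ± 0.29, adjusted p = 0.018). Its call ended without CA rat 4132 or without control rat 4027, with an adjusted p of up to 0.14. It also ended without the arrays with a B suffix (adjusted p = 0.17) and without scaling (0.11).

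**Figure D3:**
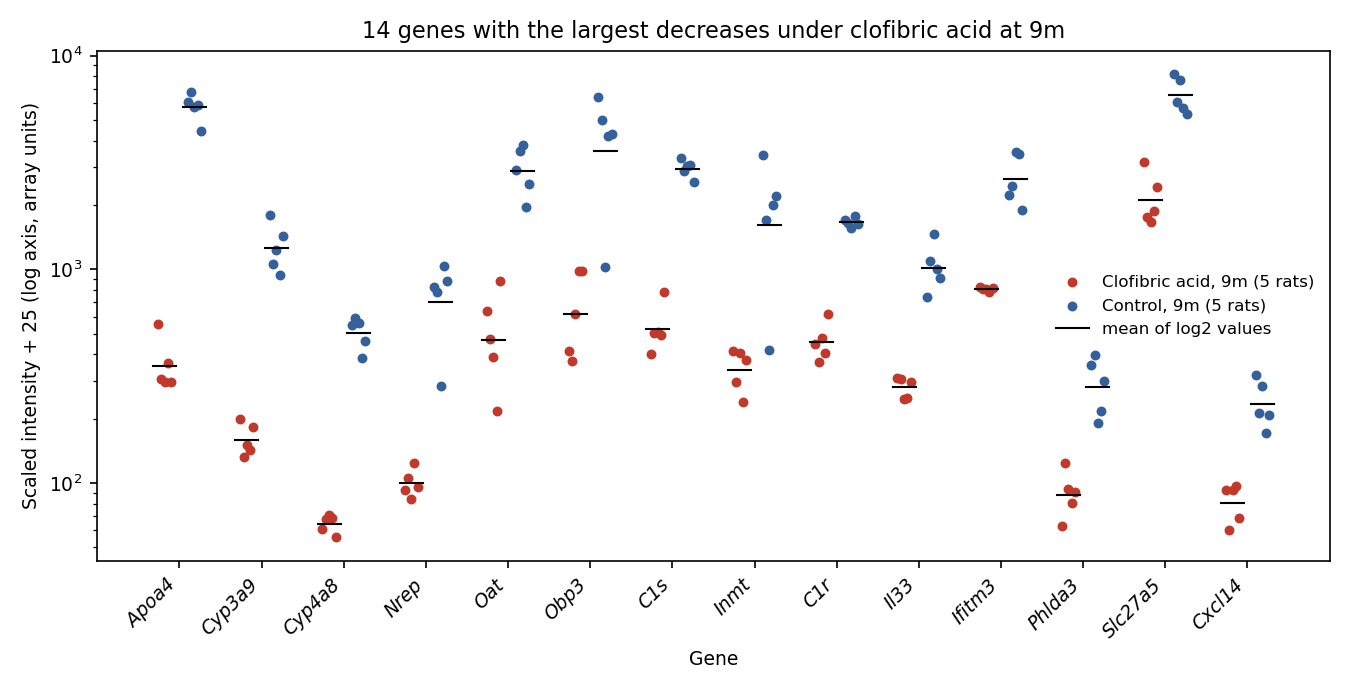
Scaled intensity plus 25 (log axis, array units) in each CA rat (red, left) and control rat (blue, right) at 9m for the 14 genes with the lowest log2 fold changes among those whose groups did not overlap. Apoa4 lies at 271 to 529 in CA rats and at 4413 to 6753 in control rats before the 25 is added.

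Apolipoproteins and lipoprotein enzymes fell in 8 of 16 measured genes (50%, against 2.85% of all genes), with a median of -0.40. The 14 hepatocyte markers, which include Apoa1, Apob and Apoh of this list, had a median of -0.26, with 13 of them below 0. The 1 gene that rose was Lpl (6.25%, against 4.56%). Without control rat 4025, 6 fell, while over all genes 190 fell in place of 249. Apoa4, an apolipoprotein of triglyceride-rich particles, had 529, 282, 271, 338 and 272 in CA livers, against 6066, 6753, 5697, 5828 and 4413 in control livers. The groups were over 8-fold apart at their closest, and the log2 fold change of -4.02 ± 0.22 (adjusted p = 1.5e-33) was the lowest of all genes named. Apom, which carries sphingosine phosphate in HDL, had 1599.6, 857, 1190.4, 935 and 1158 in CA livers and 3479, 3467, 3168, 2409 and 2395 in control livers (-1.37 ± 0.20, adjusted p = 5.4e-08). Apoc3, an inhibitor of triglyceride clearance, had 11389.6, 7656, 9602, 8098 and 8783 in CA livers and 18749, 15963, 11943, 12409 and 11203 in control livers. CA rat 4132 lay above control rat 4027, so the groups overlapped, and the log2 fold change was -0.61 ± 0.18 (adjusted p = 0.021). The Apoc3 call ended when any of 4 rats was left out, with an adjusted p of up to 0.11. Apoc4 fell as well (-0.76 ± 0.18); without scaling neither it nor Apoc3 passed (adjusted p = 0.54 for Apoc4 and 0.37 for Apoc3). Apoa1, the main protein of HDL, averaged 8251 ± 1441 in CA and 8713 ± 2199.5 in control livers (-0.05 ± 0.21, adjusted p = 0.94).

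In bile acid synthesis and transport 1 of 21 genes rose and 1 fell (4.76% each), near the shares over all genes (4.56% and 2.85%). Slc27a5, which activates bile acids and fatty acids with coenzyme A, had 3147, 1729, 1637, 1842 and 2401 in CA livers, against 8184, 6067, 7661, 5672 and 5323 in control livers. All CA rats were below all control rats (-1.63 ± 0.21, adjusted p = 3.5e-10). Cyp27a1, a sterol hydroxylase, rose by a small amount (0.57 ± 0.15), which did not pass without scaling (adjusted p = 0.15) or without the arrays with a B suffix (0.089). Cyp7a1, the rate-limiting enzyme of bile acid synthesis, averaged 749.8 ± 159 in CA and 563 ± 270.3 in control livers and did not pass (0.48 ± 0.32, adjusted p = 0.47). In cholesterol synthesis 1 of 21 genes rose and 1 fell (4.76% each), and 3 fell without control rat 4025. Tm7sf2, a sterol reductase, had 399.9, 265, 365, 264 and 316 in CA rats and 709.9, 519, 1535, 529 and 582 in control rats (-1.09 ± 0.24, adjusted p = 0.00096), with control rat 4025 highest, and did not pass without scaling (0.28).

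Complement and coagulation genes fell in 11 of 27 (40.7%, against 2.85% of all genes) and rose in none, with a median of -0.31. The 14 hepatocyte markers had a similar median of -0.26, with 13 of them below 0, although none passed. C1s, a protease that starts the classical complement pathway, had 377, 480.0, 481, 469.8 and 759 in CA livers, against 3287, 2843, 3011, 3057 and 2529.5 in control livers. C1r, its partner protease, had 422, 342, 453, 381 and 591 in CA livers, against 1674, 1619.8, 1539.8, 1742 and 1612 in control livers. Neither gene overlapped between groups, with log2 fold changes of -2.50 ± 0.21 (adjusted p = 1e-18) for C1s and -1.87 ± 0.20 (adjusted p = 1e-13) for C1r. Decreases were smaller in Cfi, which breaks down complement C3b (-0.60 ± 0.13), and Mbl2, a lectin that recognises microbes (-0.54 ± 0.13). Neither of these passed without scaling (adjusted p = 0.62 for Cfi and 0.85 for Mbl2). In the acute phase list 2 of 20 fell (10%, against 2.85% of all genes), with a median of -0.30. Cd14, the co-receptor for bacterial lipopolysaccharide, had 689, 506, 591, 578 and 759 in CA livers and 1861, 1492, 1491, 1442 and 1208 in control livers (-1.23 ± 0.22, adjusted p = 1.7e-05; 0.12 without scaling). The other, Itih4 (-0.43 ± 0.14, adjusted p = 0.042), lost its call when any of 8 rats was left out.

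Ifitm3, an interferon-induced membrane protein, had 797, 784, 783, 755 and 793 in CA livers, against 2198, 2418, 3526, 3439.6 and 1862 in control livers (-1.70 ± 0.21, adjusted p = 1.6e-10). The 5 CA rats were nearly equal and all below the control rats, although Ifitm relatives could share its probe set. The interferon and antigen presentation list had 2 of 32 genes down (6.25%, against 2.85% of all genes) and none up, with a median of -0.22. Il33, an alarmin cytokine, had 284, 281, 221, 224 and 270.4 in CA livers and 715, 1068, 1435, 975 and 888 in control livers (-1.86 ± 0.25, adjusted p = 2.3e-09). Cxcl14, a chemokine, had 68, 35.3, 67.7, 72 and 43.6 in CA livers and 295, 187, 259, 147 and 182 in control livers (-1.53 ± 0.23, adjusted p = 1.2e-07). In bulk tissue, fewer cells of a type and less RNA per cell cannot be told apart. The summed level of 18 lymphocyte markers was 1142 to 1320.5 in CA and 1417 to 1746 in control rats, without overlap, though none of the 18 passed alone. The sum of 12 macrophage and Kupffer cell markers overlapped, at 5383 to 6994 in CA and 6536 to 8939 in control rats. All 12 of these and 17 of the 18 lymphocyte markers were below 0 in log2 fold change, with a median of -0.21 in both lists, and none of the 12 passed. The part of these cells in the decreases was not tested.

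In the urea cycle and amino acid breakdown list 6 of 39 genes fell (15.4%, against 2.85% of all genes) and 3 rose (7.69%, against 4.56%). The median was -0.16. Without control rat 4025, 3 fell, while over all genes 190 fell in place of 249. Oat, ornithine aminotransferase, had 609.7, 448, 364, 192 and 859 in CA livers, against 2894, 3546, 3772, 1941 and 2493 in control livers. CA rat 4135 was lowest, and no CA rat reached the control range (-2.62 ± 0.33, adjusted p = 2e-10). Hal and Ftcd, enzymes of histidine breakdown, fell as well (-1.06 ± 0.28 and -0.65 ± 0.15), although neither passed without scaling (adjusted p = 0.31 for Hal and 0.62 for Ftcd). Csad, which makes the precursor of taurine, had 1977, 1332, 1343, 1789 and 1791 in CA livers and 736, 717, 384, 602 and 696 in control livers (1.37 ± 0.24, adjusted p = 1.2e-05). Bckdha, a subunit of the complex that breaks down branched-chain amino acids, rose too (0.85 ± 0.22, adjusted p = 0.0051), but not without scaling (adjusted p = 0.19) or without the arrays with a B suffix (0.08).

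Genes that depend on growth hormone or sex fell in 5 of 28 (17.9%, against 2.85% of all genes) and rose in 1 (3.57%, against 4.56%). The median was -0.29, near the -0.26 of hepatocyte markers. Leaving out control rat 4025 gave 4 that fell and a median of -0.20, while over all genes 190 fell in place of 249. That rat was far above the other controls in Cyp2c12, given above, and in A1bg (812 against 25.4 to 53), Prlr, the prolactin receptor (2009 against 110.4 to 141), Cux2 (301 against 2.76 to 20) and Sult2a2 (202 against 6.89 to 33.5). None of these 5 passed with or without it. Cyp3a9, a steroid-metabolising P450, had 174, 107, 126, 117 and 158 in CA livers, against 1777, 1031, 1199, 918 and 1411 in control livers. The highest CA rat was more than 5-fold below the lowest control rat (-2.98 ± 0.37, adjusted p = 2.9e-10). Obp3, of the male rat's alpha-2u-globulin family, had 390.3, 346, 593, 958 and 957 in CA rats, against 6389.9, 4976, 997, 4178 and 4291 in control rats. Control rat 4025 lay just above the highest CA rat, and near-identical family members could share the probe set (-2.53 ± 0.66, adjusted p = 0.0066). Rgn, regucalcin, fell (-0.92 ± 0.19), and so did Igf1, the growth factor released under growth hormone (-0.60 ± 0.17). A second Igf1 probe set, at -0.43, did not pass (adjusted p = 0.074). Neither Rgn nor Igf1 passed without scaling (adjusted p = 0.36 for Rgn and 0.73 for Igf1), and Igf1 did not pass without CA rat 4134 (0.11). Igfbp1, a binding protein of insulin-like growth factors, was at the threshold (1.34 ± 0.45, adjusted p = 0.05 after rounding) and lost its call when any of 7 rats was left out.

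Among drug-metabolising P450 genes 3 of 26 rose (11.5%, against 4.56% of all genes) and 1, Cyp3a9, fell (3.85%, against 2.85%). Those that rose were Cyp17a1, a steroid hydroxylase, at 911, 583, 535, 749.8 and 707 in CA rats and 184, 188, 289, 164 and 142 in control rats (1.73 ± 0.29, adjusted p = 2.7e-06), Cyp2j4 (1.07 ± 0.17) and Cyp2j3 (0.85 ± 0.20), both of the fatty acid epoxygenase subfamily. The Cyp2j3 call ended without scaling (adjusted p = 0.063) and without the arrays with a B suffix (0.086). Inmt, a methyltransferase of indoles, had 389, 270.1, 382, 215 and 349 in CA livers, against 3401, 1674, 394, 1969 and 2167 in control livers. Control rat 4025 was barely above the CA rats, while the other controls were at least 4-fold above them (-2.25 ± 0.48, adjusted p = 0.00039). Nrep, a neuronal regeneration related protein, had 67.7, 79.8, 59.4, 98.5 and 70.5 in CA livers, against 800.0, 761, 259, 1016 and 857 in control livers, and rat 4025 was again the lowest control (-2.82 ± 0.47, adjusted p = 2.5e-06).

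In the cell cycle list 1 of 32 genes fell (3.12%, against 2.85% of all genes) and none rose: Ccnd1, cyclin D1, had 174, 169.9, 203, 193 and 148 in CA livers, against 557, 357, 326, 269.6 and 430.1 in control livers. The groups did not overlap (-0.99 ± 0.24, adjusted p = 0.0031; 0.36 without scaling), and 1 of its other 2 probe sets passed (-1.13). The proliferation marker Mki67 was dim, at 15.3 ± 6.06 in CA and 15.2 ± 8.91 in control livers (0.02 ± 0.29). Of 16 p53 targets and DNA repair genes 4 fell (25%, against 2.85% of all genes) and none rose. Phlda3, a p53 target that restrains AKT, had 37.5, 99.1, 68.6, 55.8 and 65.4 in CA livers, against 330.3, 373, 166, 191 and 274 in control livers (-1.67 ± 0.20, adjusted p = 5.5e-11). Ccng1, cyclin G1, Nhej1 of DNA end joining and Mgmt, which repairs alkylated guanine, fell less (-0.65 ± 0.15, -0.66 ± 0.16 and -0.59 ± 0.17). None of these 3 passed without scaling (adjusted p = 0.65 for Ccng1, 0.42 for Nhej1 and 0.84 for Mgmt), and Mgmt lost its call when any of 3 rats was left out. Cdkn1a, the p53 target p21, did not pass (-0.54 ± 0.23, adjusted p = 0.15), although it did with array weights (adjusted p = 0.027).

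Of 17 rat liver tumour markers 2 rose (11.8%, against 4.56% of all genes) and 1 fell (5.88%, against 2.85%). Gstp1, the classic marker of preneoplastic foci, averaged 275 ± 59.6 in CA and 378 ± 80.8 in control livers and did not pass (-0.42 ± 0.23, adjusted p = 0.34). Epcam, an adhesion protein of bile duct and progenitor cells, had 479.8, 453, 516, 448 and 518 in CA livers, against 238, 188, 278, 191 and 146 in control livers (1.15 ± 0.14, adjusted p = 8.5e-11). The sum of 8 bile duct markers was 1352 to 1566 in CA and 1089.8 to 1211 in control rats. Epcam was the one member that rose, and the defining marker Krt19 was near the bottom of the scale, at 14.4 in CA and 20.5 in control livers. Akr7a3, an aldehyde reductase, rose (0.90 ± 0.29), and Igf2, the fetal growth factor, fell at a low level (-0.83 ± 0.27). Both calls ended when any of 7 (Akr7a3) or 8 (Igf2) rats was left out, and without scaling (adjusted p = 0.21 and 0.23).

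Cela1, a pancreatic-type elastase, had 1138, 625, 615, 790.1 and 717 in CA livers, against 116, 198, 103, 204 and 47 in control livers. No CA rat reached the control range (2.42 ± 0.33, adjusted p = 3.6e-09). The other 7 pancreatic acinar markers measured lay between -0.44 and 0.18 on the log2 scale and none passed, with Prss1 at 38.2 in CA and 60.1 in control livers. Zfp354a, a zinc finger protein, had 2284, 1608, 1442, 569.8 and 1651 in CA livers and 485, 369, 298, 481 and 75.1 in control livers (2.14 ± 0.55, adjusted p = 0.005). Control rat 4027 was the lowest, and the call ended without it (1.72, adjusted p = 0.057) and without the arrays with a B suffix (1.66, adjusted p = 0.11). Nipal2, of a family of magnesium transporters, had 369, 285, 285, 298 and 321 in CA livers and 58, 32.5, 37, 43.5 and 40.8 in control livers (2.33 ± 0.14, adjusted p = 3e-30). Chrna2, a nicotinic receptor subunit, had 466, 476, 307, 540.1 and 358 in CA livers and 72.4, 51.3, 65, 59 and 76.1 in control livers (2.32 ± 0.31, adjusted p = 4.3e-09).

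Redox, glucose and respiratory genes were called about as often as all genes (4.56% rose and 2.85% fell). Of 39 oxidative stress and glutathione genes 2 rose (5.13%), Gpx2 (0.77 ± 0.19) and Gsto1 (0.45 ± 0.15), and 1 fell, Gpx1 (-0.55 ± 0.18), all of glutathione metabolism. None of these 3 passed without scaling (adjusted p = 0.075 to 0.7), and Gsto1 and Gpx1 each lost the call when any of 7 rats was left out. Of 32 genes of glucose handling 2 rose, Igfbp1 and Pfkfb1, which sets fructose bisphosphate levels (1.15 ± 0.31), and 1 fell, Ugp2 of glycogen synthesis (-0.70 ± 0.18). Pfkfb1 did not pass without the arrays with a B suffix (adjusted p = 0.076), nor Ugp2 without scaling (0.77). In the respiratory chain 2 of 41 genes rose, Sdhb (0.58 ± 0.16) and Uqcrc1 (0.46 ± 0.13), and none fell. Both calls ended without CA rat 4132 or without control rat 4027, with an adjusted p of up to 0.15, and without scaling (0.24 for Sdhb and 0.39 for Uqcrc1). The median of this list was 0.20, and 35 of its 41 genes lay above 0. Its median was 0.29 to 0.45 at the other 5 times and -0.09 between DEN-CA and DEN rats at 9m. The median over all genes in the DEN arm was -0.05, and 4 of 5 DEN-CA arrays but 1 of 5 DEN arrays carry the B suffix. No gene of the list passed the test of the difference from the DEN arm. Sums of hepatocyte, stellate, endothelial and blood cell markers overlapped between groups, as did those of periportal and pericentral hepatocyte genes. Of 15 periportal genes 4 fell (26.7%) and 1 rose (6.67%), with a median of -0.41, against -0.26 for the hepatocyte markers. Of 16 pericentral genes 1 fell, Oat, and 1 rose, Cyp27a1 (6.25% each). Without control rat 4025, 1 gene fell in the acute phase list, 1 in the interferon list and 1 in the ketone list, and 3 rose in glucose handling. In the oxidative stress and tumour marker lists 1 gene then rose and none fell. Over all genes, 336 then rose in place of 399, and 190 fell in place of 249. Cdh1, the periportal cadherin, had 307, 265, 164, 236 and 265 in CA livers and 371, 424, 1055, 501 and 548 in control livers (-1.08 ± 0.20, adjusted p = 3.6e-05; 0.2 without scaling).

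Most genes called at 9m were also called at other times, each against its own controls. Of the 399 that rose, 343 (86%) rose at one or more of the other 5 times, 100 (25.1%) at all 5 and 56 (14%) at none. At 5j 152 of them rose (background 4.12% of all genes), at 1m 216 (5.46%), at 3m 259 (6.95%), at 12m 257 (7.28%) and at 18m 212 (3.68%). These were 42.2%, 45.3%, 42.6%, 40.4% and 65.8% of the genes that rose at each of those times, in that order. Of the 249 that fell, 223 (89.6%) fell at another time, 76 (30.5%) at all 5 and 26 (10.4%) at none. At 5j 148 of them fell (background 7.12%), at 1m 178 (9.23%), at 3m 164 (7.28%), at 12m 163 (4.99%) and at 18m 142 (3.59%). These were 23.8%, 22.1%, 25.8%, 37.4% and 45.2% of the genes that fell at each time. None of the 399 was called lower at another time, and 2 of the 249 were called higher at 5j. For genes called at any, all or none of the other 5 times, the share over all genes was not counted. A background is therefore given for single times only.

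The difference between the CA effect at 9m and its mean at the other 5 times was tested directly, and 0 of 12368 probe sets passed (0%; 835 at an unadjusted p under 0.05, smallest adjusted p = 0.56). Against 12m alone, 0 passed (0%; 660 unadjusted, smallest adjusted p = 0.16), and 1 passed without CA rat 4132 or without control rat 4026. No gene can therefore be called particular to 9m. Cd36 had log2 fold changes of 3.53 at 5j, 2.53 at 1m, 2.12 at 3m, 0.57 at 9m, 0.31 at 12m and 0.00 at 18m. Its difference at 9m from the mean of the other times was -1.13 ± 0.34 (interval -1.79 to -0.47, adjusted p = 0.57). Acot1 had 5.62, 4.97, 2.76, 2.99, 1.98 and 3.06 at the same 6 times, with a difference of -0.69 ± 0.37. Ehhadh had 2.64, 2.47, 2.71, 1.63, 1.46 and 1.68 (-0.56 ± 0.24). Asns ran the other way, with 1.71, 2.47, 2.75, 3.23, 2.56 and 2.69 (0.79 ± 0.27), and so did Phgdh with 1.00, 2.38, 3.16, 3.46, 2.52 and 2.25 (1.20 ± 0.40). Angptl4 had 0.27, -0.30, -0.70, -1.10, -1.25 and -1.13 (-0.47 ± 0.27), and passed as lower from 3m on. Cyp4a8 had -1.12, -1.48, -2.06, -2.96, -3.02 and -3.60 (-0.71 ± 0.23). None of these differences passed after adjustment.

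**Figure D4:**
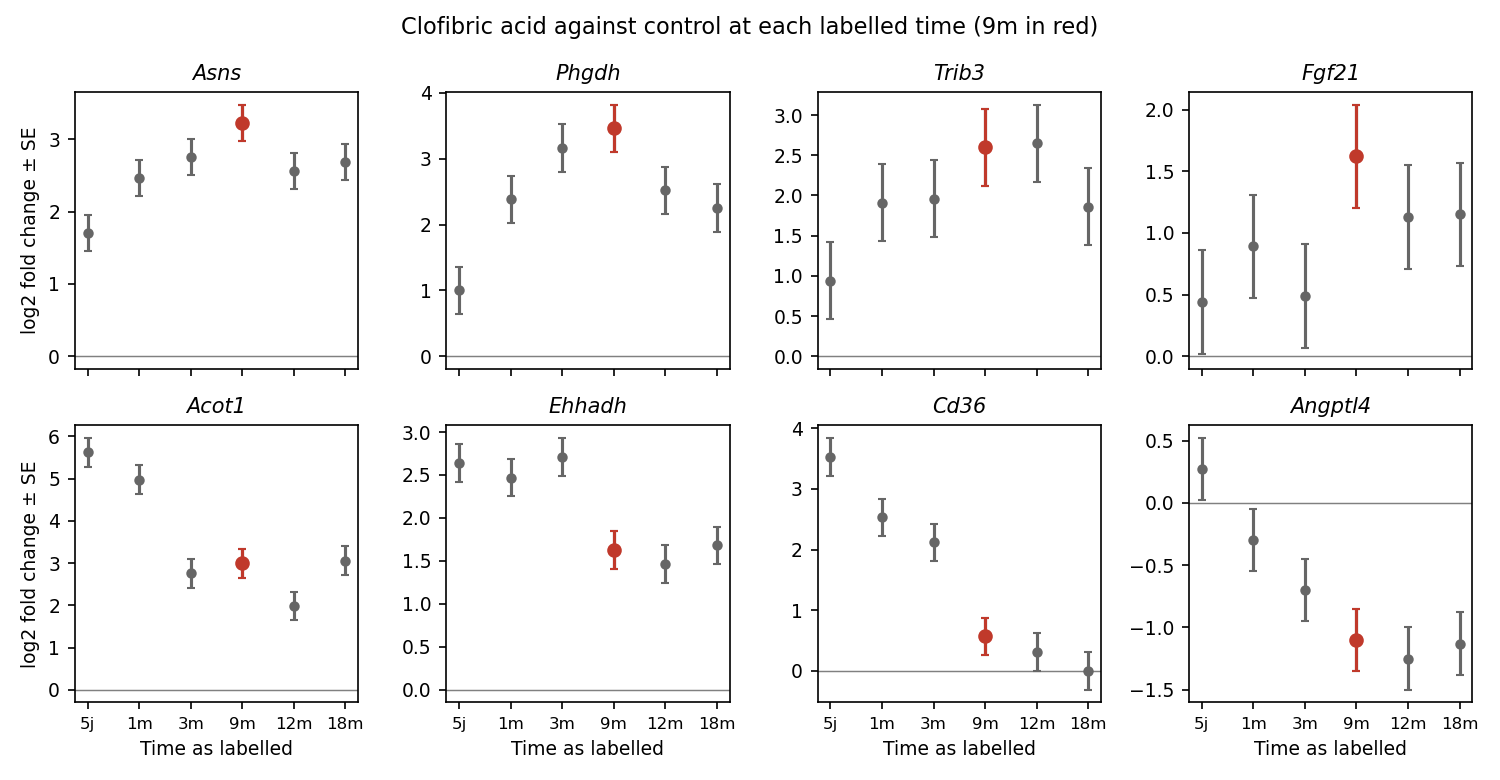
Log2 fold change of CA over control (± standard error) at each labelled time for 8 genes, with 9m in red and 5 rats in each group. Asns is highest at 9m (3.23), Cd36 is highest at 5j (3.53) and lies at 0.57 at 9m, and Angptl4 is above 0 only at 5j.

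In the DEN arm at 9m, DEN-CA rats were set against DEN rats, with no animal shared. Of the 399 genes that rose with CA alone, 148 (37.1%) rose there (background 2.4%), and these were 70.5% of the genes that rose in the DEN arm. Of the 249 that fell, 178 (71.5%) fell there (background 4.95%), or 41.1% of those that fell in the DEN arm. The log2 fold changes were 3.23 with CA alone and 3.02 in the DEN arm for Asns, and 4.28 and 4.17 in the same order for Scd2. They were -4.02 with CA alone and -3.84 in the DEN arm for Apoa4, and -2.50 and -2.22 for C1s. For Acot1 they were 2.99 with CA alone and 1.59 in the DEN arm, a difference of 1.39 ± 0.48. For Hdc they were 4.03 with CA alone and 2.82 in the DEN arm, a difference of 1.21 ± 0.50. Neither difference passed. Of 12368 probe sets 1 passed the test of this difference (0.00809%; 588 at an unadjusted p under 0.05), an unnamed probe set chosen by that test. It had 61.7, 86.2, 103, 71.7 and 92.5 in CA rats against 193, 122, 149.9, 163 and 194 in control rats. In the DEN arm it had 163, 108, 131, 159 and 284 in DEN-CA rats against 93.7, 112, 100.2, 95.4 and 79.9 in DEN rats. Its log2 fold change was -0.81 ± 0.20 with CA alone and 0.62 ± 0.20 in the DEN arm, a difference of -1.43 ± 0.28 (adjusted p = 0.019). No probe set passed when CA rat 4132 or 4135, control rat 4023 or 4027, DEN-CA rat 4115 or DEN rat 4072 was left out, nor without scaling or with only these 4 groups in the fit. With the B suffix as a covariate, which 4 of 5 DEN-CA arrays and 1 of 5 in each other group carry, 3 passed and 1859 had an unadjusted p under 0.05.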

How the data were processed

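Liver RNA of 176 sections was measured on Affymetrix rat arrays of 15922 probe sets. The values the authors deposited were linear intensities, made with MAS5 per the submitters' processing notes; the version and scaling are not given in the sources used here. Probe sets were named through Entrez identifiers to RefSeq symbols of GRCr8 (12748), accessions (2) or platform symbols (33), and 10411 genes had a probe set of their own. Several probe sets of a gene were represented by the one with the highest mean.

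Each deposited array was scaled to the median of array medians (99.35), and log2 values were taken after adding 25. Array medians ran from 25.35 to 187.2 over the series, and the number of arrays limits the precision. A probe set was tested if it exceeded the 40th percentile of its own array on at least 3 of 148 untagged arrays, and 56 control probe sets were left out. One limma 3.58.1 fit (R 4.3.3, lmFit and eBayes with a trend) over 30 untagged groups had 118 residual degrees of freedom. Contrasts were CA against control at 9m, and the differences of that effect from the other 5 times, from 12m and from the DEN arm. Tests were two-sided at an adjusted p of 0.05. Rat numbers are unique to a group, so nothing was paired.

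Named genes were the 14 highest and 14 lowest among called genes without overlap, up to 4 called genes of each list with the smallest p, and a fixed panel. Some panel genes are not reported here. The comparison, lists and rules were chosen with earlier results of these data known. Promoters came from RefSeq on GRCr8, found for 75 of 95 named genes.

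The code was tested on simulated data over 12368 probe sets. All groups were drawn around the control mean at 9m with independent normal noise. In CA rats at 9m alone, 66 probe sets were then changed by 0.5 log2, 73 by 1 and 61 by 2. The shares called hold for these settings and were not measured in the real data. For CA against control at 9m, 39.4% of changes of 0.5 log2 were called, 84.9% of 1 and 96.7% of 2. For the difference from the other times 25.8%, 80.8% and 96.7% were called, from 12m 10.6%, 68.5% and 96.7%, and from the DEN arm 7.58%, 65.8% and 96.7%. Alternatives were unscaled and quantile-normalized arrays, added values of 6 and 99, a filter at the 70th percentile or none, a term for the B suffix or its arrays left out, array weights, no trend, fits of the contrast's groups only, and each rat left out. List counts without control rat 4025 were added after seeing the data.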

Additional observations from a re-analysis of the deposited data

Results flagged for a closer look

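In 14 of 190 combinations of a named gene and a 9m group, 1 rat lay far from the other 4 by Dixon's ratio, which chance alone flags in about 1 in 20 groups. Of these, 5 were control rat 4025. Scd2 was 403 in that rat, against 21.4 to 35.2 in the other controls, and Tm7sf2 1535 against 519 to 709.9. Nrep was 259 in it against 761 to 1016, Obp3 997 against 4178 to 6389.9, and Trib3 13.4 against 139.7 to 255.

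Control rat 4023 was high in Cyp4a1 (3840.5 against 2109 to 2419.7), Eci1 (5791 against 3039 to 3648) and Ccng1 (329 against 266 to 280.4). Control rat 4027 was low in Apoa1 (5033 against 8846 to 10817), Cyp2j3 (546 against 898 to 1029) and Zfp354a (75.1 against 298 to 485). Igf2 was 24.4 in control rat 4024, against 56.7 to 66.1 in the others. Lpl was 61 in control rat 4026, against 79.5 to 84.3. Herpud1 was 3636 in CA rat 4132, against 1892 to 2252 in the other CA rats.

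The effect of CA differed between rats without DEN and rats with DEN in 1 unnamed probe set, by -1.43 on the log2 scale (adjusted p = 0.019, limma).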

How the results depend on the processing

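The 845 probe sets called for CA against control at 9m became 192 without scaling, 1562 with array weights (932 higher, 630 lower) and 503 without the arrays with a B suffix (251 higher, 252 lower). With single rats left out they ran from 606 (without control rat 4027) to 840 (without CA rat 4133). The difference from the mean of the other times gave 1 probe set without a filter and 4 with array weights, and 0 to 0 with any of 60 rats left out. The difference from 12m gave 2 with quantile normalization and 1 with array weights, and 0 to 1 with single rats left out. The difference from the DEN arm gave 0 without scaling, 0 with only the contrast's groups and 3 with the B suffix as a covariate, and 0 to 1 with single rats left out. The cause was not tested.

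Of 85 named genes called, 44 kept their call in every alternative run, and 38 calls ended without scaling. Only 2 genes, neither called, changed sign. Apoa1 was 0.12 without scaling, 0.15 with quantile normalization, and from -0.24 to 0.04 with single rats left out, above 0 without CA rat 4133 (0.01), control rat 4023 (0.01) or control rat 4025 (0.04). Mki67 was -0.02 with array weights, -0.01 without the arrays with a B suffix, and from -0.09 to 0.10 with single rats left out, below 0 without CA rat 4134 (-0.06), control rat 4024 (-0.06) or control rat 4027 (-0.09). No paired analysis was possible because the groups share no rat numbers.

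Scaling to a common median hides a change of most genes at once. Genes near the bottom of the scale, such as Aqp3 and Acot1 in controls, have folds that depend on the added 25. MAS5 detection calls were not used here.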
